A study of Arabidopsis thaliana with 12 samples.

Results

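PYK10 (AT3G09260, also called BGLU23) and NAI2 (AT3G15950) are the ER body genes described here, chosen by name: every probe set that the platform's gene table pairs with either symbol. The choice was made with earlier results of these data known. PYK10 and NAI2 are 2 of 13286 genes that have a probe set paired with them alone. Each had 1 such probe set, of 22746 that are not array controls, and both passed the filter on dim probe sets that left 13647 for testing. The arrays measured total RNA of whole 10-day-old Arabidopsis thaliana seedlings, ecotype Columbia (Col-0), grown at 22 °C. Of the 12 arrays, 3 each were of ire1a ire1b seedlings given tunicamycin, ire1a ire1b seedlings given mock, wild-type seedlings given tunicamycin and wild-type seedlings given mock. Tunicamycin, an inhibitor of N-glycosylation that makes misfolded protein build up in the endoplasmic reticulum (ER), was given at 5 mg per litre for 5 h, and mock was its solvent DMSO. Every group, the mock groups included, also received the transcription inhibitor actinomycin D at 75 µM, added 2 h earlier, and no group went without it. The labels name no allele of the ire1a ire1b double mutant and do not state whether replicates were grown as separate cultures. The p-values therefore describe the spread among these arrays only, and part of it may be technical.

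ER bodies are spindle-shaped compartments that bud from the ER in Arabidopsis and its relatives, and are abundant in seedling epidermis and in roots. They store PYK10, a beta-glucosidase that is held in the ER and meets its substrates, among them indole glucosinolates, when a cell is broken. NAI2 is an ER body protein without which the compartments do not form, and the transcription factor NAI1 is known to drive the expression of both genes. IRE1 sits in the ER membrane and carries an RNase activity that splices one transcription factor mRNA during ER stress and can also cleave mRNAs of proteins that enter the ER.

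The values are MAS5 signals, a linear measure of probe set brightness. Their trimmed mean was about 500.1 on each array, so each change is relative to the bulk of the array. The lowest correlation of an array with another of its own group was between 0.967 and 0.987 (Pearson's r of log2 signal across tested probe sets, which are not independent). The 3' over 5' signal of the control transcripts, a sign of RNA integrity, was between 1.65 and 2.06 (log2, mean of 6 probe set pairs) in ire1a ire1b tunicamycin arrays, 1.62 to 1.77 in ire1a ire1b mock arrays, 1.73 to 2.04 in wild-type tunicamycin arrays and 1.75 to 1.84 in wild-type mock arrays. The mean was highest in wild-type tunicamycin arrays (1.92 ± 0.17, SD, n = 3) and lowest in ire1a ire1b mock arrays (1.71 ± 0.08), with overlapping ranges. Its part in the PYK10 and NAI2 values was not tested. The targeted transcripts, IRE1A and IRE1B, are paired with no probe set of their own in the gene table used, and the double mutant was not checked through them.

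PYK10 had signals of 23333, 25042 and 25548 in the 3 ire1a ire1b tunicamycin arrays and of 22742, 24040 and 22534 in the ire1a ire1b mock arrays. It had 9633, 10241 and 10328 in wild-type tunicamycin arrays, and 23758, 21963 and 23271 in wild-type mock arrays. Wild-type seedlings under tunicamycin were the 1 low group: all 3 of their arrays lay below each of the other 9, which overlapped one another. The group means fell in the order ire1a ire1b tunicamycin (24641 ± 1161, SD, n = 3), ire1a ire1b mock (23105 ± 816), wild-type mock (22998 ± 928) and wild-type tunicamycin (10067 ± 379), and no neighbours among the first 3 were separated beyond their spread.

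NAI2 had signals of 5824, 7637 and 7200 in ire1a ire1b tunicamycin arrays and of 6497, 6700 and 5988 in ire1a ire1b mock arrays. It had 1631, 1651 and 1829 in wild-type tunicamycin arrays, and 4651, 4640 and 4776 in wild-type mock arrays. Here the arrays formed 3 levels: both mutant groups were highest and overlapped, wild-type mock lay between, and wild-type tunicamycin was lowest with no overlap. The means were 6887 ± 946, 6395 ± 367, 4689 ± 75.7 and 1704 ± 109 in ire1a ire1b tunicamycin, ire1a ire1b mock, wild-type mock and wild-type tunicamycin arrays, in the order of the levels (SD, n = 3 each). Ire1a ire1b tunicamycin array 1 was the lowest of the 6 mutant arrays for NAI2, and that group had the widest spread of the 4.

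**Figure D1:**
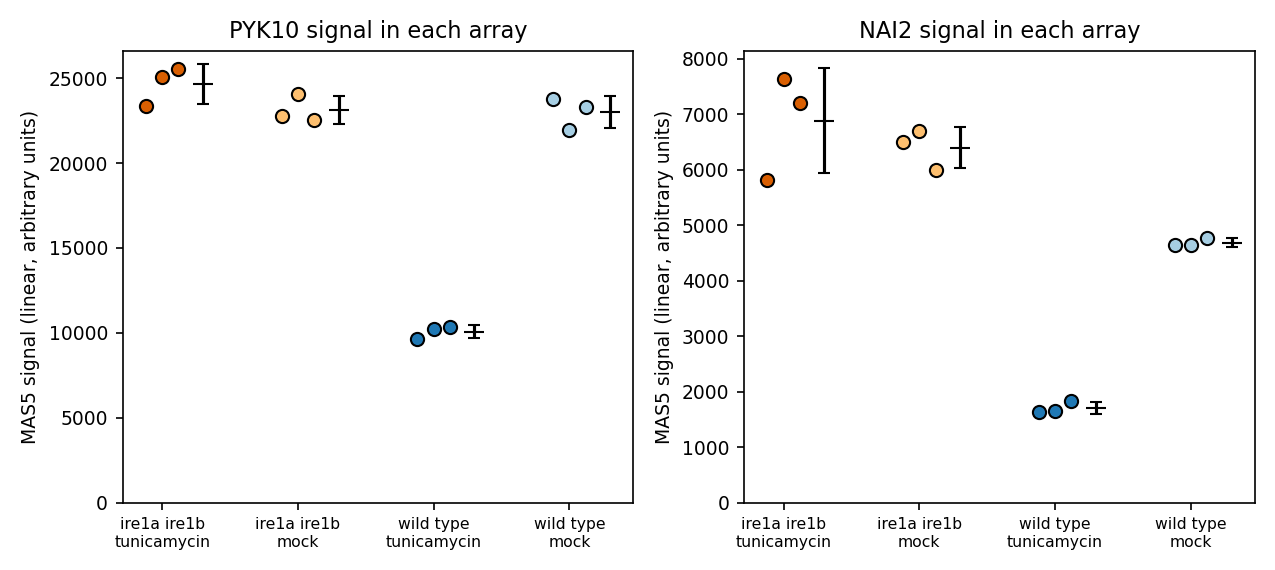
MAS5 signal (linear, arbitrary units) of PYK10 (left) and NAI2 (right) in each of the 12 arrays by group; points are arrays and the bar beside them is the mean ± SD (n = 3). PYK10 is low, near 10067, in wild-type tunicamycin arrays alone, while NAI2 falls into 3 levels, with wild-type mock arrays near 4689 between the mutant arrays and the wild-type tunicamycin arrays near 1704.

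The first comparison asks whether tunicamycin lowered the transcripts in wild type in the presence of actinomycin D. Both fell. PYK10 was at 43.8% of its mock signal (95% interval 39.5% to 48.6%), a log2 change of -1.19 ± 0.07 (SE) with a limma adjusted p of 3.72e-07. NAI2 was at 36.3% of its mock signal (95% interval 31.1% to 42.4%), a log2 change of -1.46 ± 0.10 with a limma adjusted p of 1.71e-06. In both genes each tunicamycin array was lower than each mock array. Among all tested probe sets 5.77% fell and 0.432% rose by the same test, and the groups did not overlap for 11.8% in the lower and 14.2% in the higher direction. The median log2 change over all of them was 0.09. By size of the fall PYK10 ranked 197 and NAI2 ranked 92 of 13647, and by unadjusted p they ranked 4 and 14. In whole seedlings, fewer cells of a type and less RNA per cell cannot be told apart.

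The second comparison asks what tunicamycin did to the same transcripts in seedlings labelled ire1a ire1b. Neither passed the test. PYK10 in ire1a ire1b was at 106.6% of its mock signal (95% interval 96.1% to 118.3%), with a log2 change of 0.09 ± 0.07 and a limma adjusted p of 1.0. NAI2 was at 107.1% (95% interval 91.7% to 125.1%), with a log2 change of 0.10 ± 0.10 and a limma adjusted p of 1.0. The intervals do not reach below 91.7%, so a loss in the mutant of the size seen in wild type lies outside them. The groups of both genes overlapped, while 3.96% of all tested probe sets were higher and 2.71% lower without overlap. Over all tested probe sets 0.0440% rose and 0% fell in the mutant by limma, with 319 higher and 182 lower at an unadjusted p under 0.05. Together these were 501 of 13647, fewer than the share of 0.05 that such a threshold passes where nothing changes.

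The interaction tests the difference between the genotypes directly. It is the change in wild type from which the change in ire1a ire1b is subtracted, so a negative value is a larger fall in wild type. For PYK10, log2 changes of 0.09 in ire1a ire1b and -1.19 in wild type gave an interaction of -1.28 ± 0.10 (limma adjusted p = 1.30e-05, 95% interval -1.50 to -1.07). For NAI2, log2 changes of 0.10 in ire1a ire1b and -1.46 in wild type gave -1.56 ± 0.15 (limma adjusted p = 7.32e-05, 95% interval -1.88 to -1.24). Both genes therefore passed a test that 2.98% of all tested probe sets passed in the same direction and 0.0879% in the other. By unadjusted p PYK10 ranked 3 and NAI2 ranked 11 of 13647, and by size they ranked 196 and 100.

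**Figure D2:**
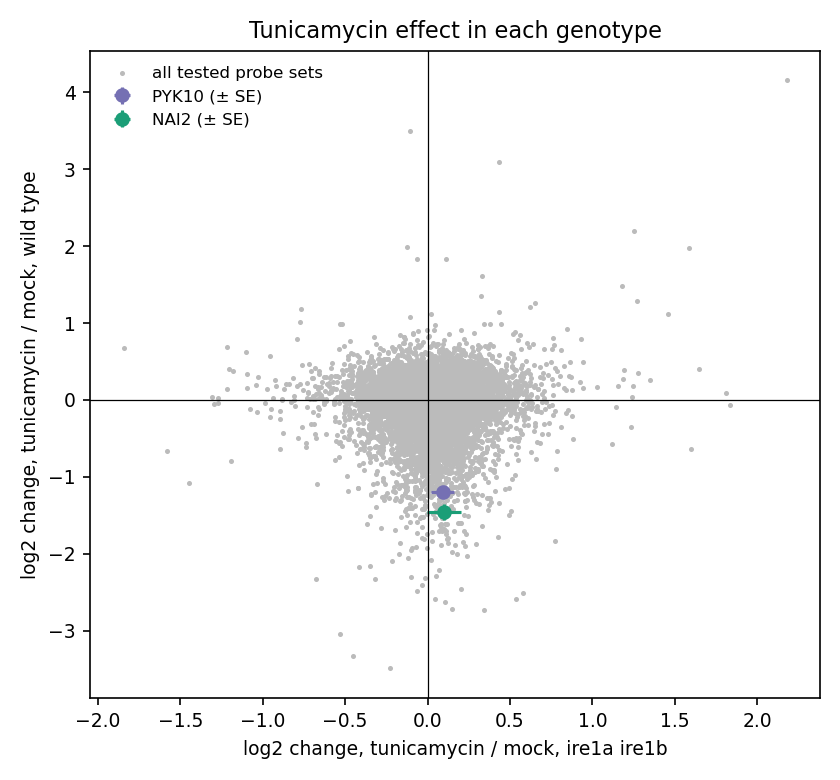
Log2 change under tunicamycin against mock in ire1a ire1b (horizontal axis) and in wild type (vertical axis) for all 13647 tested probe sets (grey), with PYK10 and NAI2 in colour and bars for ± SE. PYK10, at 0.09 and -1.19, and NAI2, at 0.10 and -1.46, lie beside the vertical zero line and below the bulk.

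The genotypes were also set against each other within each treatment. Under mock neither gene passed the test. PYK10 had 23105 ± 816 in ire1a ire1b and 22998 ± 928 in wild type (SD, n = 3 each), a log2 change of 0.01 ± 0.07 (95% interval -0.14 to 0.16, limma adjusted p = 0.99). NAI2 had 6395 ± 367 in ire1a ire1b and 4689 ± 75.7 in wild type, 136.2% of the wild-type signal (95% interval 116.7% to 159.1%) and a log2 change of 0.45 ± 0.10. All 3 mutant mock arrays were above all 3 wild-type mock arrays for NAI2, as were those of 5.32% of all tested probe sets, with 8.39% in the other direction. Its unadjusted p of 0.00080 became 0.11 after limma's Benjamini-Hochberg adjustment, so NAI2 did not pass, while 0.161% of tested probe sets were called higher and 0.322% lower. The adjusted p ran from 0.0031 to 0.37 over the 20 other settings tried and passed in 2 of them: with array weights (0.0031), and without ire1a ire1b tunicamycin array 1 (0.046), an array that enters this comparison only through the shared estimate of the spread.

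Under tunicamycin both transcripts were higher in the mutant, as 6.68% of tested probe sets were by limma and 11.5% by arrays that did not overlap. In the other direction the shares were 3.03% and 16.3%. PYK10 had 24641 ± 1161 in ire1a ire1b and 10067 ± 379 in wild type (SD, n = 3 each), a 2.45-fold difference (95% interval 2.21 to 2.71, log2 1.29 ± 0.07, limma adjusted p = 2.18e-07). NAI2 had 6887 ± 946 in ire1a ire1b and 1704 ± 109 in wild type, a 4.02-fold difference (95% interval 3.44 to 4.69, log2 2.01 ± 0.10, limma adjusted p = 1.96e-07). NAI2 ranked 35 of 13647 by the size of this difference and PYK10 ranked 194. These comparisons share arrays with the tunicamycin comparisons above and add no independent samples.

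**Figure D3:**
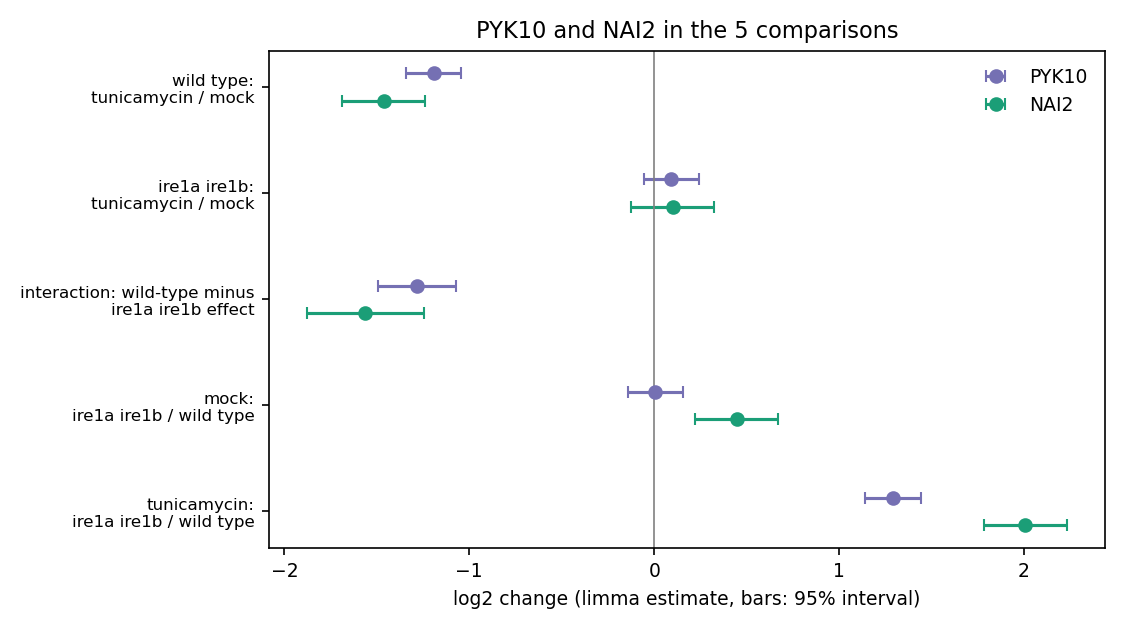
Limma log2 changes of PYK10 and NAI2 with 95% intervals in the 5 comparisons, each named at the left with its numerator first. Both genes lie below 0 in wild type and in the interaction and above 0 between genotypes under tunicamycin; under mock the interval of PYK10 includes 0 (-0.14 to 0.16) and that of NAI2 does not (0.22 to 0.67), although its adjusted p was 0.11.

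Whether the genes changed by unequal amounts was tested on the difference of their log2 signals within each array, NAI2 minus PYK10. In wild type this difference was -2.56, -2.63 and -2.50 in tunicamycin arrays, against -2.35, -2.24 and -2.28 in mock arrays. It was lower in every tunicamycin array than in every mock array, and the change of NAI2 minus that of PYK10 was -0.27 ± 0.05 (SE, log2, n = 3 per group). The exact permutation p was 0.1, two-sided, which is the smallest that 3 arrays against 3 can give, so this test could not pass 0.05. In ire1a ire1b the corresponding value was 0.01 ± 0.09 (exact permutation p = 0.9). Between genotypes, ire1a ire1b minus wild type, it was 0.44 ± 0.04 under mock and 0.72 ± 0.09 under tunicamycin (exact permutation p = 0.1 each). After Benjamini-Hochberg adjustment over these 4 comparisons the exact permutation p values were 0.13 for wild type, mock and tunicamycin and 0.9 for ire1a ire1b. PYK10 is much brighter than NAI2, and whether its signal responds in proportion to RNA was not tested, which limits all of these differences.

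PYK10 belongs to a subgroup of beta-glucosidases that are kept in the ER, and other proteins are known from ER bodies too. A list of 12 genes, of that subgroup and of other ER body proteins, had 6 with a named probe set. Of these 3 passed the filter: PYK10, NAI2 and BGLU25, a beta-glucosidase gene listed as a member of the subgroup. BGLU25 had 612.4, 682.1 and 605.6 in wild-type tunicamycin arrays, against 928.4, 890.2 and 1027 in wild-type mock arrays. Its groups did not overlap and it fell by 0.58 ± 0.16 (log2, limma adjusted p = 0.047). Without overlap in wild type, 11.8% of all tested probe sets were lower and 14.2% higher. In ire1a ire1b BGLU25 had 1438 ± 407 under tunicamycin and 1065 ± 89.1 under mock (SD, n = 3 each), a log2 change of 0.40 ± 0.16 (limma adjusted p = 1.0). Its interaction was -0.98 ± 0.23 (limma adjusted p = 0.030), and under tunicamycin it was higher in ire1a ire1b than in wild type by 1.15 ± 0.16 (log2, limma adjusted p = 0.00035). Its fall in wild type passed in 7 of 20 other settings, with an adjusted p of up to 0.17 (without wild-type mock array 3), and its interaction in 10 of 19, with up to 0.089 (without ire1a ire1b mock array 1). BGLU19, BGLU20 (ATA27) and BGLU24 were too dim to test, with mean signals of 12.0, 3.77 and 22.1 in wild-type tunicamycin arrays and 16.4, 13.4 and 38.7 in wild-type mock arrays. Of the list, 3 of 3 tested members fell in wild type and 3 of 3 passed in the interaction, against 5.77% and 2.98% of all tested probe sets. The medians were -1.19 and -1.28, against medians of 0.09 and 0.07 over all tested probe sets. Both counts include PYK10 and NAI2, and both list medians are the values of PYK10 itself. BGLU25 is the only further member, so the counts add nothing beyond its values above.

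Of the 9 genes of the regulator list, NAI1, MYC3 and MYC4 had named probe sets and all 3 were tested. NAI1, the basic helix-loop-helix transcription factor of ER body genes, had 210.4, 191.7 and 233.7 in wild-type tunicamycin arrays, against 184.0, 196.0 and 137.5 in wild-type mock arrays. Its groups overlapped, with a log2 change of 0.31 ± 0.26 (limma adjusted p = 0.63). MYC3 and MYC4, transcription factors of jasmonate signalling, had 0.05 ± 0.21 and 0.26 ± 0.20 in wild type (limma adjusted p = 0.93 and 0.59). Of the 3 regulators 0 were called in either tunicamycin comparison or in the interaction by limma. At an unadjusted p under 0.05 there was 1, in the interaction. With 5.77% of all tested probe sets lower and 0.432% higher in wild type, 0 of 3 is near the background. Under tunicamycin MYC4 was lower in ire1a ire1b, with 98.5 ± 26.0, than in wild type, with 168.1 ± 26.1 (log2 -0.79 ± 0.20, limma adjusted p = 0.022). That call was kept in 14 of 19 other settings, the highest adjusted p being 0.095 without wild-type tunicamycin array 1. Limma called 3.03% of all tested probe sets lower in the same comparison.

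The PYK10 complex is the aggregate that PYK10 forms with jacalin-related lectins and GDSL-type lipase-like proteins once cells are broken. Of its 10 listed genes 4 were tested, all lectins, and 0 were called lower or higher in wild type by limma, with 0 also at an unadjusted p under 0.05. Over all tested probe sets 5.77% were lower and 0.432% higher, so 0 of 4 is near the background. JAL33 had 5950, 6940 and 7031 in wild-type tunicamycin arrays, against 7163, 6168 and 7124 in wild-type mock arrays. The groups of JAL33 overlapped (log2 -0.04 ± 0.10). JAL34 had -0.05 ± 0.10, JAL22 0.00 ± 0.10 and JAL23 -0.13 ± 0.25, and their median of -0.05 compares with 0.09 over all tested probe sets. The signs of JAL22, JAL33 and JAL34 changed under other settings. JAL33 was higher in ire1a ire1b than in wild type under tunicamycin, 9273 ± 1018 against 6640 ± 600 (log2 0.48 ± 0.10, limma adjusted p = 0.0087, and 0.051 without wild-type tunicamycin array 1). Limma called 6.68% of all tested probe sets higher there. Under mock JAL33 was also higher in every mutant array, 8454 ± 408 against 6818 ± 564 (log2 0.31 ± 0.10, limma adjusted p = 0.40). Such separation under mock was seen for 5.32% of all tested probe sets, with 8.39% in the other direction. The interaction of JAL33 was -0.17 ± 0.15 (limma adjusted p = 0.76), so the difference was not shown to depend on tunicamycin. Of 13 genes for myrosinases and indole glucosinolate synthesis only UGT74B1, a glucosyltransferase of glucosinolate synthesis, was named and tested, with 0.00 ± 0.14 in wild type (limma adjusted p = 0.99).

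**Figure D4:**
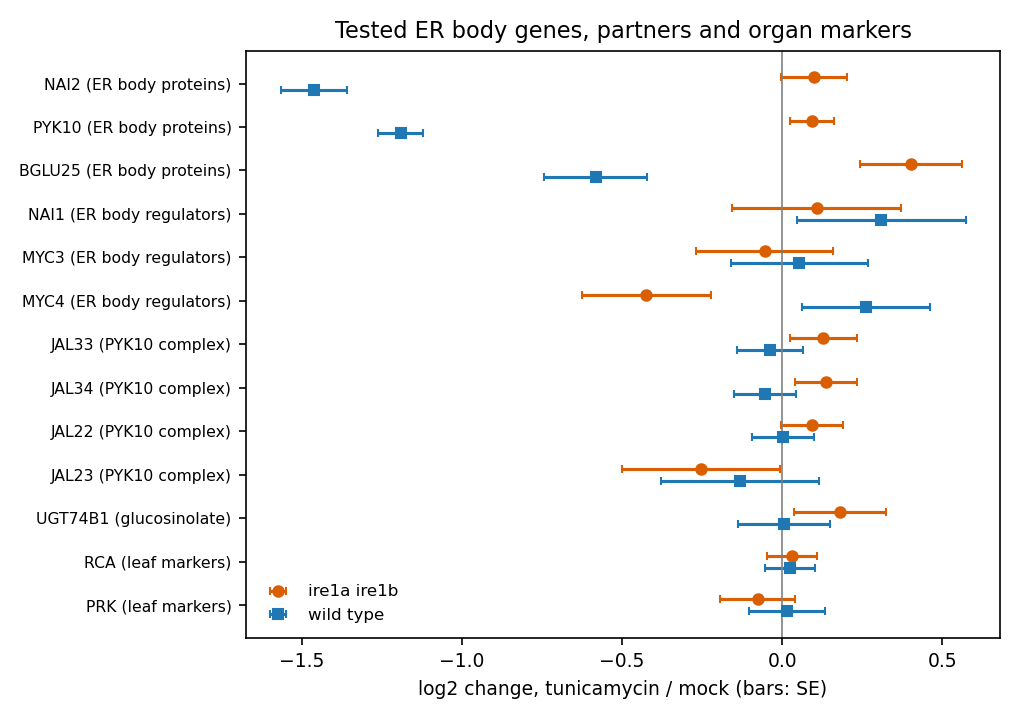
Log2 change under tunicamycin against mock (± SE) in ire1a ire1b (circles) and wild type (squares) for every tested gene of the ER body, regulator, PYK10 complex, glucosinolate and leaf marker lists. NAI2 (-1.46), PYK10 (-1.19) and BGLU25 (-0.58) are the genes called lower in wild type; the 4 lectins lie between -0.13 and 0.00.

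PYK10 and NAI2 are known from roots, hypocotyls and epidermis, and a seedling sample holds several organs. Of 10 root markers only EXPA7, a root hair expansin, was named, and it fell below the filter, with 65.2, 38.3 and 37.5 in wild-type tunicamycin arrays against 80.6, 68.8 and 76.0 in wild-type mock arrays. In ire1a ire1b EXPA7 had 43.6, 64.1 and 63.8 in tunicamycin arrays against 98.4, 70.4 and 74.0 in mock arrays. EXPA7 was thus lower in every tunicamycin array than in every mock array of the same genotype, at signals too dim to test. Of all tested probe sets, 11.8% were lower without overlap in wild type and 2.71% in ire1a ire1b. Of 8 leaf markers 2 were tested: RCA (Rubisco activase) had 0.02 ± 0.08 and PRK (phosphoribulokinase) 0.02 ± 0.12 in wild type (log2, limma adjusted p = 0.91 and 0.97). The part of organ makeup in the PYK10 and NAI2 results was not tested.

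The wider beta-glucosidase family was added after its values were seen. Of its 47 genes 22 had a named probe set, and 10 of these were tested. Of the tested genes 6 fell in wild type (PYK10, BGLU16, BGLU25, BGLU33, BGLU40 and BGLU44), against 5.77% of all tested probe sets. The count includes PYK10 itself, and BGLU25, whose call was kept in 7 of 20 other settings. BGLU40 was dim, with 64.4 ± 12.2 in wild-type tunicamycin and 148.4 ± 25.5 in wild-type mock arrays (SD, n = 3 each). The lower of these means lies below the signal of the filter. The fall of BGLU40 was -1.21 ± 0.20 (log2, limma adjusted p = 0.0017), a call kept in all 19 other settings tried. The median log2 change was -0.66 over the 10 and 0.09 over all tested probe sets. In ire1a ire1b limma called 0 of the 10, where it called 0% of all tested probe sets lower and 0.0440% higher. In the interaction 6 of the 10 passed in the lower direction, against 2.98% of all tested probe sets. These were PYK10, BGLU16, BGLU25, BGLU40, BGLU44 and BGLU15. The interaction of BGLU25 passed in 10 of 19 other settings. Those of BGLU15, BGLU16, BGLU40 and BGLU44 were not looked at in other settings, so how firm this count is was not tested. The interaction of BGLU40 was -1.16 ± 0.29 (limma adjusted p = 0.046). BGLU15 was not called in wild type (log2 -0.38, limma adjusted p = 0.19) and had an interaction of -0.81 ± 0.20 (limma adjusted p = 0.044). BGLU33, called in wild type, had an interaction of -0.96 ± 0.39 that did not pass (limma adjusted p = 0.33). BGLU44 stood beside PYK10 in size, with 3454 ± 85.1 in wild-type tunicamycin and 7876 ± 361 in wild-type mock arrays (SD, n = 3 each; log2 -1.19 ± 0.10, limma adjusted p = 6.11e-06). In ire1a ire1b BGLU44 had 7400 ± 1005 under tunicamycin and 8512 ± 451 under mock (log2 -0.21 ± 0.10, limma adjusted p = 1.0). The call of BGLU33 was lost in 2 of 20 other settings, with an adjusted p of up to 0.075 without wild-type mock array 2. A further probe set is paired with BGLU21 and BGLU22 together and was not used. Whether PYK10's own probe set also takes up RNA of close relatives was not tested.

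Genes with a like pattern were found by Pearson's r of log2 signal over the 12 arrays, among 7317 other tested probe sets of 1 named gene. The arrays share the common scaling, and r is driven by the 3 wild-type tunicamycin arrays, so it is a description of likeness. Nearest to PYK10 were AT1G02305 (r = 0.99, Spearman's rho = 0.85), AT3G54400 (r = 0.98, rho = 0.60), scpl26, a serine carboxypeptidase-like gene (r = 0.98, rho = 0.53), AT1G30130 (r = 0.98, rho = 0.59) and AT5G11700 (r = 0.98, rho = 0.82). Their log2 changes in wild type lay between -1.93 (AT3G54400) and -0.71 (AT1G30130), a range that follows from how they were chosen. NAI2 came at rank 20 for PYK10, with r = 0.97 and rho = 0.87.

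Nearest to NAI2 were AT3G20370 (r = 0.99, rho = 0.94), AT5G11700 (r = 0.99, rho = 0.97), AT5G57330 (r = 0.98, rho = 0.93), PYK10 itself at rank 4 (r = 0.97, rho = 0.87) and CYP71B6, a cytochrome P450 gene (r = 0.97, rho = 0.76). AT3G20370, the nearest, had mean signals of 3182 in ire1a ire1b tunicamycin, 3081 in ire1a ire1b mock, 1236 in wild-type tunicamycin and 2376 in wild-type mock arrays. Like NAI2, AT3G20370 had higher means in both mutant groups than in wild-type mock. Its log2 difference under mock was 0.38 ± 0.10 (SE, limma adjusted p = 0.18). CYP71B6 had 0.34 ± 0.11 there (limma adjusted p = 0.36) and AT5G57330 had 0.02 ± 0.09 (limma adjusted p = 0.98). None of these genes passed limma's test under mock, and nor did NAI2. AT5G11700 is near both genes and had a log2 change of -1.03 ± 0.11 (SE) in wild type. These values are descriptions, since the genes were chosen on the same arrays.

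**Figure D5:**
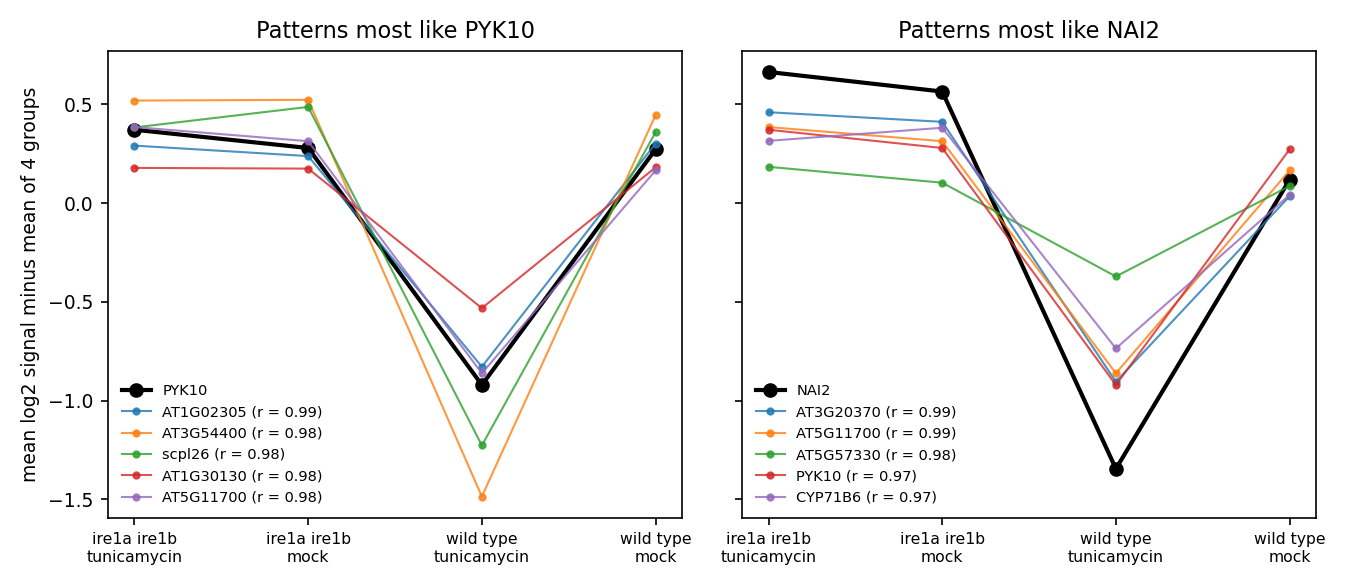
Mean log2 signal of each group minus the mean of the 4 groups, for PYK10 (left) and NAI2 (right) in black and the 5 named genes most like each in colour, with Pearson's r over 12 arrays. Every line is lowest in wild-type tunicamycin arrays; the NAI2 line is higher in both mutant groups than in wild-type mock, while the PYK10 line is level across those 3 groups.

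PYK10 is among the bright probe sets of these arrays, and its highest signal of 25548 compares with array maxima between 32522 and 43658. Whether probe sets this bright respond in proportion to RNA was not tested.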

How the data were processed

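Labelled RNA was hybridised to 12 one-colour arrays. The deposited values are linear intensity (signal) per probe set, and per the submitters' processing notes the authors used MAS5; no source used here gives its version or settings. Log2 was taken of these deposited signals with no further normalization. Probe sets with a mean log2 signal above the 40th percentile (6.10, a signal of 68.7) were tested: 13647 of 22746, with 64 array controls left out. A model with 1 mean per group was fitted to all 12 arrays in limma 3.58.1 (R 4.3.3; eBayes with an intensity trend), two-sided. The p-values of each comparison were adjusted by Benjamini-Hochberg across those 13647, and 0.05 was the threshold. The fit was tested on simulated data.

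The platform's gene table gave a single gene for 13513 probe sets, several genes for 503 and no gene for 8730; of the single-gene ones, 13436 matched RefSeq (assembly TAIR10.1). The members, lists, tests and named genes (list genes with a probe set of 1 gene, and the 5 nearest patterns of each member) were chosen with earlier results of these data known; the BGLU family list and neighbouring genes were added after the values were seen. A planned grouping by protein sequence needs sequences not used here. Alternatives were 2 other normalizations, 2 other filters, no trend, a replicate block, only the groups compared, array weights and leaving out each array. Same-numbered tunicamycin and mock arrays deviated together in ire1a ire1b (r = 0.11, 0.44 and 0.51), which meets the criterion for pairing used here (every r above 0.1), but not in wild type (0.13, 0.02 and 0.12). Same-numbered mock arrays of ire1a ire1b and wild type had r = 0.08, 0.34 and 0.39, which misses it. The main fit had no replicate block, and a block was tried as an alternative. The number of arrays limits the precision.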

Additional observations from a re-analysis of the deposited data

Results flagged for a closer look

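The effect of tunicamycin differed between the genotypes for both genes by the interaction test (wild-type effect minus ire1a ire1b effect). For PYK10 the interaction was -1.28 on the log2 scale, with all 3 wild-type tunicamycin arrays below all 3 wild-type mock arrays and overlapping groups in ire1a ire1b. For NAI2 it was -1.56, with the same pattern of arrays. Groups of 3 arrays are too small for a search for single outlying arrays.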

How the results depend on the processing

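The falls of PYK10 and NAI2 in wild type, their interactions and their differences between ire1a ire1b and wild type under tunicamycin kept direction and call in all 20 alternatives (19 for the interaction). The filters, the trend, the block and the fit of only the groups compared leave the estimate itself unchanged. Only the call, and not the direction, could change in those settings. In wild type PYK10 ranged from -1.26 to -1.16 and NAI2 from -1.51 to -1.43. Near 0, signs turned without a call: NAI2 in ire1a ire1b with array weights (-0.0033); PYK10 under mock with quantile normalization (-0.011), with array weights (-0.021) and between -0.026 and 0.031 when 1 array was left out; and the NAI2 change minus the PYK10 change in ire1a ire1b (-0.061 to 0.084 when 1 array was left out). NAI2 under mock passed with array weights (0.47) and had 0.41 to 0.49 when 1 array was left out. Wild-type values also turned sign with arrays centred on their median (RCA -0.028, PRK -0.036, UGT74B1 -0.047, JAL22 -0.048) and with quantile normalization (RCA -0.035, PRK -0.037, JAL22 -0.025). Leaving out 1 array gave -0.039 to 0.079 for PRK, -0.032 to 0.17 for MYC3, -0.13 to 0.048 for JAL34, -0.11 to 0.038 for JAL33, -0.12 to 0.15 for UGT74B1 and -0.026 to 0.043 for JAL22. The count called in ire1a ire1b was 6, against 11 with replicate block, 1 with only the groups compared, 13 with array weights and 3 to 8 without 1 array. Under mock it was 66, against 105 with replicate block, 42 with only the groups compared, 907 with array weights and 32 to 103 without 1 array. The interaction count lower in wild type was 406, against 853 with array weights. The cause of these moves was not tested. The block changed no call of PYK10 or NAI2. The NAI2 change minus the PYK10 change was -0.27 within same-numbered pairs in wild type. With complete pairs this mean equals the unpaired one by construction, so it is no check of the pairing. The alternative planned for protein sequences was not run, since no protein table was used here. With 3 arrays per group an exact test cannot go below 0.1.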

Other observations

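Both genes lie on chromosome 3, and their neighbours in the order of protein-coding genes (RefSeq, TAIR10.1) were looked at after the values were seen. Of the 2 genes on each side of PYK10 only AT3G09250 was tested, with log2 changes under tunicamycin of -0.08 ± 0.23 in ire1a ire1b and 0.14 ± 0.23 in wild type (SE; limma adjusted p = 1.0 and 0.81). Beside NAI2, AT3G15940 had 0.37 ± 0.18 in ire1a ire1b and -0.22 ± 0.18 in wild type, and AT3G15970 had 0.26 ± 0.15 and 0.11 ± 0.15. None of these 3 neighbours passed limma's test in either genotype (highest limma adjusted p = 1.0, lowest 0.61).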
